A study of Homo sapiens with 12 samples.

Results

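Transcripts of the epidermal growth factor (EGF) receptor system were followed in HK2 cells exposed to tumour necrosis factor (TNF-α) and to a short-chain fatty acid (SCFA). The set held 9 genes chosen by symbol, out of 58278 genes listed: the receptors EGFR, ERBB2 and ERBB3, the ligands HBEGF, AREG, EREG, TGFA and BTC, and the receptor inhibitor ERRFI1. Each of the 9 was found in 1 row of the files, and all 9 passed the filter on low counts that left 24342 genes to test. HK2 is an immortalized line from human proximal tubule, so all 12 libraries came from the same line. Each of 6 groups had 2 libraries. Ctrl cells were untreated. TN cells received TNF-α at 5 ng/mL for 3 h. PRTN and BUTN cells received propionate at 15 mM or butyrate at 3 mM for 24 h and then TNF-α at 5 ng/mL for 3 h. TNPR and TNBU cells received the same agents at the same doses in the reverse order. All groups except Ctrl therefore had TNF-α, and the concentrations of propionate and butyrate differed. Neither an SCFA without TNF-α nor TNF-α followed by 24 h without an SCFA was analysed here, so TNPR and TNBU differ from TN in time as well as in SCFA, and time and SCFA cannot be told apart. A general treatment text in the labels names other agents, and the groups rest on the label that each library carries.

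EGFR and its relatives ERBB2, ERBB3 and ERBB4 are receptor tyrosine kinases that signal as dimers, through Ras and ERK and through PI3-kinase. EGFR binds EGF, TGF-α, amphiregulin (AREG), epiregulin (EREG), betacellulin (BTC) and heparin-binding EGF-like growth factor (HBEGF). ERBB2 has no known soluble ligand, and ERBB3 binds neuregulins and has little kinase activity of its own, so both act through partners. The ligands are made as membrane-bound precursors that ADAM proteases cut loose. In the proximal tubule, EGFR signalling is known for driving repair after injury, and when it persists it has been linked to fibrosis. ERRFI1, also called MIG6, binds the EGFR kinase domain and blocks it, and its transcript is induced by the signalling that it restrains.

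The total counts ranged from 27269986 to 33851130 per library, at which 3 counts correspond to 0.0886 to 0.110 CPM (counts scaled to a common library total). Levels are CPM scaled with TMM factors (0.913 to 1.06). Differences are log2 fold changes with standard errors from limma-voom, and a gene was called where it changed over 1.5-fold at an adjusted p under 0.05, with adjustment over all 24342 genes. With 2 libraries per group, the spread of each gene was estimated over all 6 groups together and moderated over all genes. The p-values measure only the spread between these samples, and not that of the compared groups alone. Replicates differed most in TNPR and TNBU, where the median difference between libraries was 0.14 and 0.16 on the log2 scale, against 0.08 in PRTN. The epithelial keratin KRT8 was present at 725 to 1425 CPM in the group means, whereas the proximal tubule genes LRP2 and HNF4A were at 0 counts in Ctrl and TN. The sum of 10 proximal tubule markers was 576 to 627 CPM in Ctrl and TN and 217 to 251 CPM in the SCFA libraries. PAX8 and GGT1, which made up most of that sum, were the 2 called down against TN in each SCFA group, while 5 of the 9 tested were called up in each. The sum of 6 epithelial markers was 1212 to 1314 CPM in Ctrl and TN and 1820.0 to 2417 CPM in the SCFA libraries, with 3 or 4 called up and 1 down. Markers of other cell types moved with the SCFA groups. Summed over 8 leukocyte markers the level was 0.931 to 1.40 CPM in the Ctrl and TN libraries and 2.84 to 5.76 CPM in the SCFA libraries, and 4 of the 8 were tested, of which 4 were called up in PRTN and 3 in each other SCFA group against TN. MS4A1 was at 0 throughout, and PTPRC, the pan-leukocyte CD45 gene, was at 0 in TN, TNPR and TNBU. The sum of 5 endothelial markers went from at most 0.287 CPM to 2.29–3.87 CPM, with 4 of 4 tested called up in each SCFA group, and that of 6 fibroblast markers from 52.6–59.6 to 204–255 CPM, with 4 or 5 called up and 1 down. COL1A1 made up most of the fibroblast sum, with group means of 48.3 CPM in Ctrl, 41.4 in TN and 161 to 196 with an SCFA. COL1A2 and PDGFRA stayed under 1 CPM, and DCN was lower with an SCFA than in TN. The part of all these markers in the results below was not tested.

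**Figure D1:**
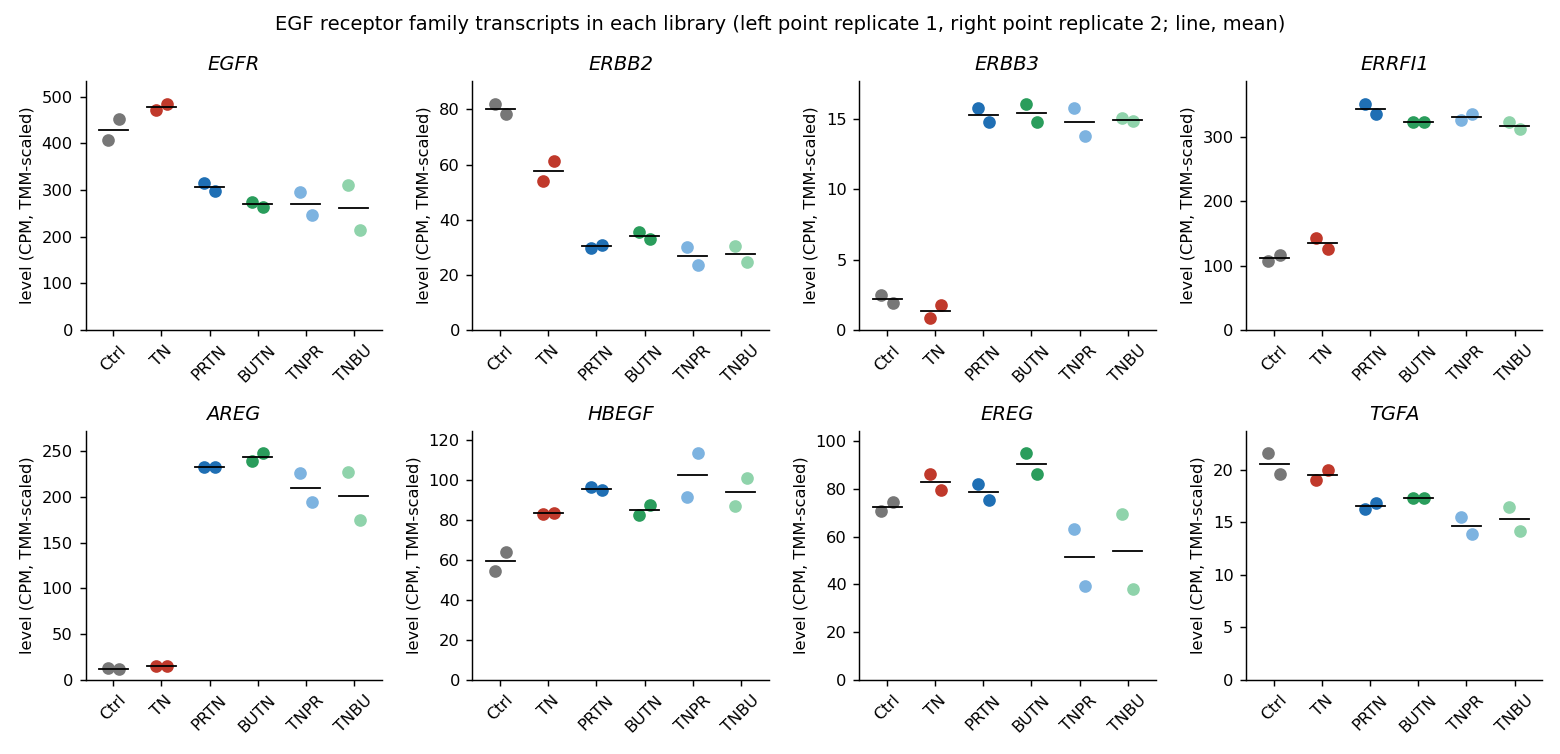
Level of 8 members in each library, in CPM scaled with TMM factors, on a linear axis that starts at 0. Points are replicates 1 (left) and 2 (right) and lines are means. AREG, ERBB3 and ERRFI1 are higher in all 8 SCFA libraries than in any Ctrl or TN library, and EGFR, ERBB2 and TGFA are lower. The share of all genes separated in this way was not counted. Against TN, 18.4% of all genes were called up and 11.9% down in all 4 SCFA groups. BTC, with 0 to 4 counts per library, is not drawn.

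TNF-α alone moved none of the 9 members past the thresholds (0 called, against 1.30% of all genes tested). By limma-voom 4 members had an unadjusted p under 0.05, and edgeR and DESeq2 each called 0. HBEGF and ERBB2 came closest. HBEGF, a ligand of EGFR that also binds ERBB4, was at 54.4 and 63.9 CPM in Ctrl and at 82.9 and 83.5 CPM in TN. Its log2 difference was 0.50 (SE 0.11, adjusted p = 0.0282), which is 1.41-fold and under the 1.5-fold threshold. ERBB2 was at 82.1 and 78.4 CPM in Ctrl against 54.1 and 61.5 CPM in TN, a log2 difference of −0.48 (SE 0.11, adjusted p = 0.0299), or 1.39-fold. For the others the adjusted p lay between 0.0697 (ERRFI1, log2 difference 0.26) and 0.752 (TGFA, −0.08), leaving out BTC for its low counts. For AREG the difference of TN from Ctrl was 0.30 (adjusted p = 0.432), and for EGFR it was 0.16 (0.609). For ERBB3 it was −0.78 (0.205), from counts of 24 and 50 in TN.

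Far more members differed in the SCFA groups. Against TN, 5 members were called in each group with the SCFA first (PRTN, where 40.6% of all genes were called, and BUTN, 37.9%) and 6 in each with the SCFA last (TNPR, 41.8%, and TNBU, 41.6%). AREG, ERBB3 and ERRFI1 rose in all 4 SCFA groups, 3 of 9 members against 18.4% of all genes, and EGFR and ERBB2 fell in all 4, 2 of 9 against 11.9%. In the single comparisons with PRTN, BUTN, TNPR and TNBU, 23.9%, 23.1%, 24.9% and 25.0% of all genes were called up and 16.7%, 14.8%, 16.9% and 16.5% down. EREG was the additional call, lower in TNPR and TNBU. All 4 comparisons use the same TN libraries, so their likeness is in part built in. The median log2 difference over the 8 members other than BTC was 0.06 (PRTN), 0.08 (BUTN), −0.06 (TNPR) and −0.09 (TNBU), beside 0.09, 0.08, 0.12 and 0.09 over all genes. Scaling by library size alone would raise the median of all genes by 0.15 to 0.20 and turn the 5824 higher and 4057 lower genes of PRTN vs TN into 6785 and 3127, but it left the direction of these 5 members as it was.

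**Figure D2:**
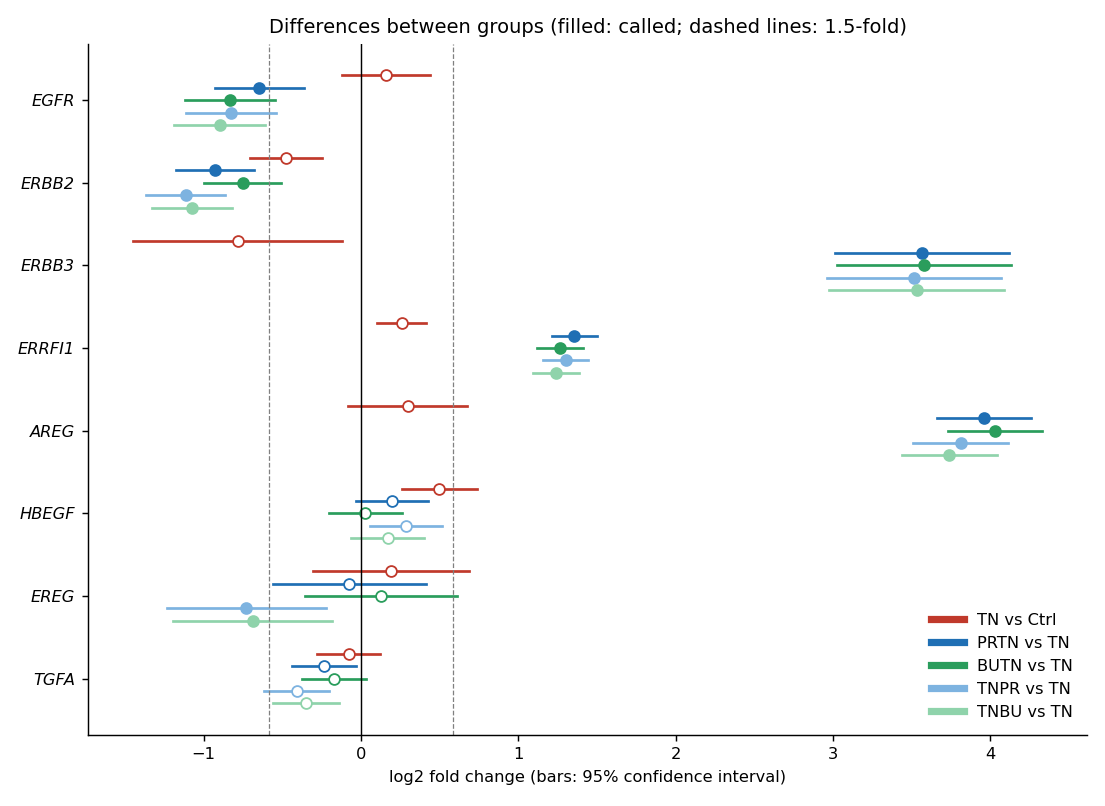
Log2 fold change of each member in TN vs Ctrl and in each SCFA group vs TN, with 95% confidence intervals from limma-voom. Filled points are called and dashed lines mark 1.5-fold. AREG lies between 3.74 and 4.03 in the 4 SCFA groups and ERBB3 between 3.51 and 3.58, while HBEGF and TGFA have no filled point.

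Of the receptors, EGFR (ENSG00000146648.17, chromosome 7, 55019017 to 55211628 in GRCh38, plus strand) was the most abundant per kilobase of exon. Its level was 407 and 453 CPM in Ctrl and 473 and 485 CPM in TN. With the SCFA first it was 314 and 297 CPM (PRTN) or 275 and 264 CPM (BUTN), and with the SCFA last 295 and 246 CPM (TNPR) or 310.0 and 214 CPM (TNBU). Every SCFA library was therefore below every Ctrl and TN library. Here and for the other members, the share of all genes split in this way was not counted. Against TN the log2 difference was −0.65 (SE 0.13, adjusted p = 0.000951) for PRTN, −0.83 (0.000159) for BUTN, −0.83 (0.000144) for TNPR and −0.90 (8.09e-05) for TNBU, that is 1.57- to 1.86-fold lower. In PRTN the value with scaling by library size alone was −0.49, under the fold threshold. A relative loss of a transcript in bulk RNA can come from fewer cells of a type or from less RNA per cell, and these cannot be told apart.

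ERBB2, the preferred dimerization partner of the family (chromosome 17, 39687914 to 39730426, plus strand), went in steps: 80.3 ± 2.59 CPM in Ctrl, 57.8 ± 5.18 in TN, and 30.3 ± 0.784, 34.3 ± 1.67, 26.8 ± 4.62 and 27.6 ± 3.94 in PRTN, BUTN, TNPR and TNBU (SD, n = 2). The single SCFA libraries lay between 23.5 and 35.5 CPM, all below the lowest TN library at 54.1. Against TN the log2 difference was −0.93, −0.75, −1.11 and −1.07 in the same order (SE 0.11 to 0.12, highest adjusted p = 0.000102). Against Ctrl it was −1.40, −1.23, −1.59 and −1.55, up to 3.01-fold lower. In the annotation, exons of MIEN1 on the opposite strand cover 5.53% of the ERBB2 exons and those of PGAP3 1.40%, and the strand setting of the counting is not given in the sources used here.

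ERBB3 (chromosome 12, 56076799 to 56103505, plus strand) went the other way from a low start. It was at 2.51 and 1.94 CPM in Ctrl and 0.894 and 1.79 in TN, and at 15.7 and 14.8 (PRTN), 16.1 and 14.8 (BUTN), 15.8 and 13.8 (TNPR) or 15.0 and 14.9 (TNBU) with an SCFA. The SCFA libraries spanned a narrow range, with the lowest of them above 5 times the highest Ctrl library. The rise over TN was 11.8-, 11.9-, 11.4- and 11.6-fold (log2 3.56, 3.58, 3.51 and 3.53, SE 0.25 to 0.26, highest adjusted p = 1.84e-07). The low TN counts set its precision: leaving out either TN library moved the log2 difference in BUTN between 3.06 and 4.05.

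Divided by exon length, so that genes can be compared, EGFR made up 75.7% and 78.5% of the 3 receptor transcripts in Ctrl and 84.8% and 83.3% in TN, and between 78.2% and 82.3% in the SCFA libraries. EGFR therefore stayed the leading receptor transcript in all 12 libraries. ERBB2 went from 23.6% and 21.0% in Ctrl through 15.0% and 16.3% in TN to 12.04–15.6% in the SCFA libraries. ERBB3 was at most 0.636% in Ctrl and TN and 5.42% to 7.44% in the SCFA libraries. These shares describe RNA and not receptors at the surface.

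Among the ligands, AREG showed the largest change of the set. AREG (ENSG00000109321.10, chromosome 4, 74445136 to 74455005, plus strand) and EREG (chromosome 4, 74365145 to 74388749, plus strand) are neighbours, 56386 bases apart on the same strand, and encode related ligands. AREG was called up in all 4 SCFA groups and EREG in none, and their promoters are given here for that reason. Both are the 250 bases before the annotated start in RefSeq on GRCh38.p14, plus strand, with capitals for a cyclic AMP response element octamer (TGACGTCA), a TATA box (TATAAA) and a GC box (CCGCCC).
AREG, chr4:74444886-74445135: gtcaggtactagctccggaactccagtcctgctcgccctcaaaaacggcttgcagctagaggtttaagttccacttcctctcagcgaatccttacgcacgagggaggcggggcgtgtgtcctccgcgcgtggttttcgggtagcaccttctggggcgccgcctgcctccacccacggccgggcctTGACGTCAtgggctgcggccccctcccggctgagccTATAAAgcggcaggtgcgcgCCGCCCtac
EREG, chr4:74364895-74365144: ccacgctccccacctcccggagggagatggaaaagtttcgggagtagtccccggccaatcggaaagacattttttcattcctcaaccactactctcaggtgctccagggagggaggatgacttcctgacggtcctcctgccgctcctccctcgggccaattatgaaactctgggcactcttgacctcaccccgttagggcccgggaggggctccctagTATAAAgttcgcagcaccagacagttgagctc

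The AREG window held the octamer TGACGTCA 65 bases before the start, TATAAA at 29 bases and CCGCCC at 9 bases before it. The EREG window held TATAAA at 32 bases before the start and no match to the other letters searched. Searched on both strands over 35116 promoters of the same length, TGACGTCA, which is its own reverse complement, was in 1.65%, TATAAA or TTTATA in 10.7% and GGGCGG or CCGCCC in 42.6%. The AP-1 heptamers TGACTCA and TGAGTCA were in 4.20% of all promoters, and the NF-κB decamers searched in 0.322%. Neither window held one of these. The windows had a GC content of 65.2% (AREG) and 58.0% (EREG), beside a median of 58.0%. These are matches of letters, and no binding was measured. Promoters were matched for 8 of the 9 members, not for ERBB3. The window of ERRFI1, also called up in all 4 SCFA groups, held 1 GC box and no match to TGACGTCA or TATAAA. Whether any of these letters bears on the changes was not tested.

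AREG was at 12.5 and 11.7 CPM in Ctrl and 15.1 and 14.6 in TN. With propionate it was at 232 and 232 CPM (PRTN) or 226 and 194 CPM (TNPR), and with butyrate at 239 and 247 CPM (BUTN) or 227 and 175 CPM (TNBU). The lowest SCFA library was thus more than 10 times the highest TN library. Against TN this was a rise of 15.6-fold for PRTN (log2 3.96, SE 0.14, adjusted p = 5.72e-10), 16.3-fold for BUTN (4.03, 8.61e-10), 14.1-fold for TNPR (3.81, 7.6e-10) and 13.4-fold for TNBU (3.74, 1.04e-09). Leaving out any 1 library kept the log2 difference between 3.52 and 4.03 over the 4 groups.

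EREG did not follow its neighbour. It was at 70.7 and 74.4 CPM in Ctrl and 86.2 and 79.7 CPM in TN. The groups with the SCFA first lay close by, at 82.2 and 75.3 CPM (PRTN) and 94.98 and 86.2 CPM (BUTN). The log2 difference from TN was −0.07 in PRTN (adjusted p = 0.799) and 0.13 in BUTN (0.658). In the groups with the SCFA after TNF-α it was lower, at 63.4 and 39.2 CPM in TNPR and 69.7 and 38.1 in TNBU. EREG fell against TN by 0.73 on the log2 scale in TNPR (SE 0.23, adjusted p = 0.0168) and by 0.69 in TNBU (adjusted p = 0.0229). These calls were the least firm of the set. Without TNPR replicate 2 the value was −0.44 (adjusted p = 0.142), and without TNBU replicate 2 it was −0.27 (0.254). Without TN replicate 1 the adjusted p was 0.0754 and 0.0977, without TN replicate 2 that of TNBU was 0.0550, and with DESeq2 it was 0.0572 and 0.106. Against Ctrl the differences were −0.54 (0.0679) and −0.50 (0.0902), not called, but without replicate 1 of TNPR or TNBU that group's value was −0.92 or −0.95 and was called. In both later groups replicate 2 was below replicate 1 for EGFR, ERBB2, ERBB3, AREG, EREG and TGFA, and above it for HBEGF.

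HBEGF (chromosome 5, 140332843 to 140346603, minus strand) was at 82.9 and 83.5 CPM in TN, and not far from it at 96.2 and 94.7 CPM (PRTN), 82.5 and 87.2 CPM (BUTN), 91.4 and 113 CPM (TNPR) and 86.6 and 101 CPM (TNBU). No difference from TN was called, with log2 values of 0.20, 0.03, 0.29 and 0.17 and adjusted p of 0.129, 0.843, 0.0324 and 0.194. Against Ctrl it rose in PRTN (0.70, adjusted p = 0.000125), TNPR (0.79, 4.27e-05) and TNBU (0.67, 0.00019), and in BUTN its value was 0.53 (0.00126), under 1.5-fold. Single libraries decided some of these calls: without Ctrl replicate 1 the values in PRTN and TNBU were 0.58 and 0.55, and without TNBU replicate 2 the value was 0.54. Without Ctrl replicate 2 that in BUTN was 0.64 and past the threshold.

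Against Ctrl the numbers of members called were again 5 (PRTN, 39.4% of all genes), 5 (BUTN, 36.9%), 6 (TNPR, 40.4%) and 6 (TNBU, 40.0%). AREG, ERBB3 and ERRFI1 rose and ERBB2 fell in each. EGFR fell in BUTN (−0.67), TNPR (−0.67) and TNBU (−0.74), and its value of −0.49 in PRTN missed the fold threshold. Without TNPR replicate 2 or TNBU replicate 2 the EGFR value in that group was −0.58 and −0.48, also under it.

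TGFA (chromosome 2, 70447284 to 70554193, minus strand), a soluble EGFR ligand of epithelia, was at 21.6 and 19.6 CPM in Ctrl and 19.0 and 20.0 in TN, and between 13.9 and 17.3 CPM in the SCFA libraries. These were all below the Ctrl and TN libraries, but the log2 differences from TN of −0.24, −0.17, −0.41 and −0.35 (adjusted p = 0.0472, 0.135, 0.00273 and 0.00775) stayed under 1.5-fold. Against Ctrl it was not called either. Without TNPR replicate 1 it was called in TNPR (−0.60), and with the adjusted p alone it was called down in all 4 groups. BTC had 0 to 4 counts in every library, at or near the limit of 3 counts, and its fitted differences are not given.

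**Figure D3:**
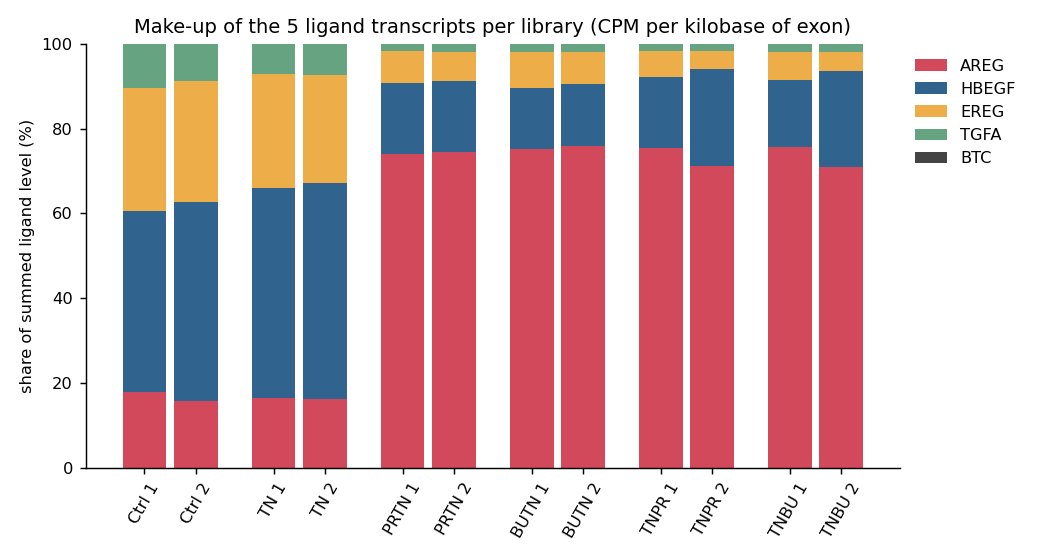
Share of each ligand in the summed level of the 5 ligand transcripts in every library, in percent of CPM per kilobase of exon, stacked to 100. AREG takes 15.7% to 17.8% in the Ctrl and TN libraries and 71.0% to 75.9% in the SCFA libraries, and BTC is too thin to see.

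Per kilobase of exon, the ligand pool changed hands. HBEGF led it in Ctrl (42.7% and 46.9%) and TN (49.6% and 50.9%), and AREG led it in every SCFA library, where HBEGF had 14.3% to 22.9%. The summed level of the 5 ligands was 42.6 and 45.5 CPM per kilobase in Ctrl, 55.9 and 54.9 in TN, 191 and 189.7 (PRTN), 193 and 198 (BUTN), 182 and 166 (TNPR) and 183 and 149.8 (TNBU) with an SCFA. With the mean length of the coding transcripts in place of the union of exons, the AREG share was 15.6% to 17.2% in Ctrl and TN and 72.1% to 76.7% in the SCFA libraries, so the shift did not hang on the length used.

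ERRFI1 (chromosome 1, 8004404 to 8026309, minus strand) rose together with AREG. It was at 108 and 117 CPM in Ctrl and 144 and 126 in TN, and at 352 and 336 (PRTN), 323 and 323 (BUTN), 327 and 336 (TNPR) or 323 and 312 (TNBU) with an SCFA. The SCFA libraries were all above 300 CPM and the others all below 150. The rise over TN was 2.56-, 2.41-, 2.47- and 2.36-fold (log2 1.36, 1.27, 1.30 and 1.24, SE 0.07, highest adjusted p = 1.58e-08). A long non-coding RNA on the opposite strand shares 3.71% of its exons.

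Of the 7 family genes outside the set, NRG1 was the most abundant. NRG1, a neuregulin that binds ERBB3 and ERBB4, was the only one of the 16 family genes examined that TNF-α raised past the thresholds. It was at 90.5 and 102 CPM in Ctrl and 146 and 145 in TN (log2 0.60, SE 0.08, adjusted p = 0.00113, 1.52-fold). This call lay just past the 1.5-fold threshold, and HBEGF, at 1.41-fold, lay just under it. Whether the NRG1 call holds with a library left out or under the other alternatives was not tested. NRG1 was lower in all 4 SCFA groups than in TN. It was at 52.9 and 49.1 CPM (PRTN), 58.3 and 56.2 CPM (BUTN), 47.2 and 50.2 CPM (TNPR) and 56.5 and 48.5 CPM (TNBU). The log2 difference from TN was −1.52, −1.35, −1.58 and −1.48 (highest adjusted p = 4.29e-08), and that from Ctrl −0.91, −0.75, −0.98 and −0.88. This ligand of ERBB3 was thus lower in the groups in which ERBB3 was higher. Of the 7 family genes outside the set, 1 was called up in TN vs Ctrl, against 1.30% of all genes called, and 3 were called up and 1 down in each SCFA group against TN, where 23.1% to 25.0% of all genes were called up and 14.8% to 16.9% down.

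The 3 that rose did so at low counts. ERBB4 had 3 and 1 counts in Ctrl and 1 and 2 in TN, and 13 to 28 in the SCFA libraries. NRG2 had at most 2 counts in Ctrl and TN and 8 to 18 in the SCFA libraries. NRG3 had 0 counts in every Ctrl and TN library and 2 to 11 in the others. EGF itself was at 4.48 to 6.57 CPM and was not called in any SCFA group. NRG4 had 1 to 9.57 expected counts and EPGN 0 to 3.

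**Figure D4:**
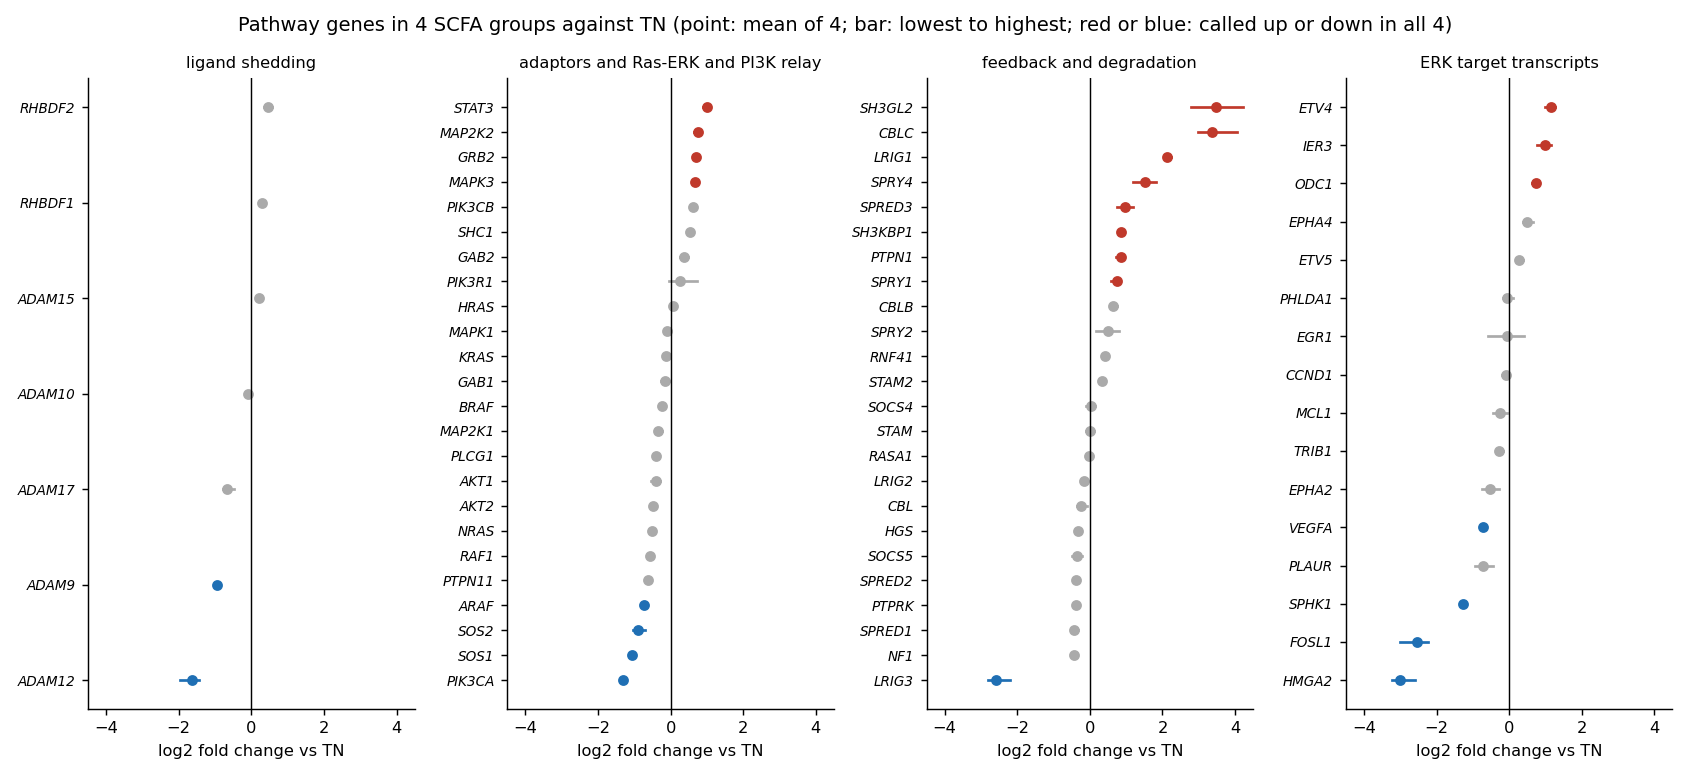
Log2 fold change against TN of the tested genes of the 4 pathway lists. Points are means over the 4 SCFA groups, bars run from the lowest to the highest of the 4, and red or blue marks genes called up or down in all 4. LRIG1 and LRIG3 lie at opposite ends of the feedback list among genes over 1 CPM.

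Around the receptors, 4 lists of pathway genes were counted, to be read beside the 23.1% to 25.0% of all genes called up and 14.8% to 16.9% called down per SCFA group against TN. Ligand shedding (7 of 8 listed genes tested, TIMP3 not) had no gene called up in any SCFA group, and 3, 2, 3 and 3 of the 7 called down in PRTN, BUTN, TNPR and TNBU (28.6% to 42.9%). ADAM12, a metalloprotease that cuts HBEGF, fell from 46.4 CPM in TN to 11.8, 14.9, 17.0 and 17.1 CPM (log2 −1.97, −1.64, −1.49 and −1.44). ADAM9 fell from 38.4 to between 18.9 and 20.2 CPM. For ADAM17, the main sheddase of AREG, EREG and TGF-α, the log2 difference was −0.62, −0.48, −0.79 and −0.75, called in all but BUTN. ADAM17 is outside the rule for named genes and was chosen after its values were seen. The list's median was −0.03, −0.18, −0.02 and −0.12.

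The relay from the receptors through adaptors, Ras, ERK and PI3-kinase (24 genes) had 6, 6, 5 and 4 genes up (16.7% to 25.0%) and 4, 4, 6 and 7 down (16.7% to 29.2%). In all 4 groups 4 were up and 4 down, each 16.7%, beside 18.4% and 11.9% of all genes. STAT3, a transcription factor downstream of EGFR, rose by 1.03, 0.90, 1.09 and 0.99 (log2), the ERK kinase MAP2K2 by 0.84, 0.66, 0.80 and 0.77, and the adaptor GRB2 by 0.78, 0.61, 0.72 and 0.64. PIK3CA, the catalytic p110α subunit, fell by 1.28, 1.27, 1.37 and 1.29, and the Ras exchange factors SOS1 and SOS2 fell by 0.99 to 1.15 and by 0.71 to 1.05. The list went in no common direction, with a median of −0.20, −0.15, −0.28 and −0.22.

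Feedback and degradation genes (24 tested) had 10, 8, 9 and 9 genes up (33.3% to 41.7%, beside 23.1% to 25.0% of all genes) and 1 down (4.17%, beside 14.8% to 16.9%). Of the 8 that rose in all 4 groups, CBLC and SH3GL2 were under 1 CPM. LRIG1, a membrane protein that promotes EGFR degradation, rose by 2.11, 2.07, 2.25 and 2.10 on the log2 scale, from 1.75 CPM in TN to between 7.37 and 8.34 CPM. The Ras-ERK inhibitor SPRY4 rose from 3.51 to 12.6, 11.8, 8.76 and 8.04 CPM, and its relative SPRED3 rose by 1.20, 1.05, 0.92 and 0.75 on the log2 scale. The fall was that of LRIG3, a relative of LRIG1, from 161 CPM to 28.3, 35.2, 23.6 and 23.2 CPM. The list's median was 0.23, 0.17, 0.26 and 0.03.

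Known ERK target transcripts (16 tested) had 4, 3, 3 and 3 up (18.8% to 25.0%, beside 23.1% to 25.0% of all genes) and 5, 4, 6 and 6 down (25.0% to 37.5%, beside 14.8% to 16.9%). In TN vs Ctrl, FOSL1, an AP-1 subunit, rose (log2 0.76, adjusted p = 0.0153), as did cyclin D1, CCND1 (0.64, 0.000406), and the ephrin receptor EPHA4 fell by 1.06 (0.000908). The other 3 pathway lists had no call in TN vs Ctrl by limma-voom. Against TN the ETS factor ETV4 rose by 1.28, 1.17, 1.14 and 0.98, IER3 by 1.14, 1.17, 0.78 and 0.86 and ODC1, of polyamine synthesis, by 0.76, 0.74, 0.64 and 0.78. The chromatin protein HMGA2 fell from 1165 CPM to 138, 194, 125 and 137 CPM, FOSL1 from 77.5 to 16.6, 15.6, 12.5 and 9.68 CPM, and the sphingosine kinase SPHK1 fell by 1.21 to 1.35 on the log2 scale. The list's median was −0.09, −0.07, −0.39 and −0.29.

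The orders of the agents were compared as TNPR with PRTN and TNBU with BUTN. The time since TNF-α differs along with the order in these comparisons, so order and time cannot be told apart. By limma-voom 0 members were called in either (background 0.160% and 0.267% of all genes), with 1 and 3 members at an unadjusted p under 0.05 and 0 calls by edgeR and by DESeq2. Leaving BTC aside for its low counts, EREG had the largest differences, −0.65 (95% confidence interval −1.15 to −0.15, adjusted p = 0.315) and −0.81 (−1.31 to −0.32, adjusted p = 0.135). Without TNBU replicate 1, EREG was called in TNBU vs BUTN at −1.26.

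The SCFAs were compared with each other at the doses used, 15 mM propionate and 3 mM butyrate, so the comparison is between conditions and not between compounds at a matched dose. No member was called in PRTN vs BUTN (0, against 0.168% of all genes) or in TNPR vs TNBU (0, against 0.00822%). At an unadjusted p under 0.05 there were 0 members and 1 member (BTC, at 0 to 4 counts), and edgeR and DESeq2 called 0 in both. The 95% confidence interval of the log2 difference of propionate minus butyrate ran from −0.28 to 0.15 for AREG, from −0.26 to 0.24 for ERBB3 and from −0.05 to 0.22 for ERRFI1 with the SCFA given earlier. Given later it ran from −0.15 to 0.29, from −0.28 to 0.24 and from −0.07 to 0.20. For these 3 genes, differences beyond 0.29 either way lay outside the intervals. Of the 8 members other than BTC, EREG had the widest intervals, with −0.68 to 0.28 and −0.56 to 0.48. Whether the difference between the later and earlier groups itself differed between the SCFAs was also tested. It was called for 0 members (0% of all genes), with 0 at an unadjusted p under 0.05 and 0 by edgeR and by DESeq2.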

How the data were processed

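RNA of 12 HK2 libraries was sequenced as stranded mRNA. The deposited values are expected counts (estimated counts) per gene, which the authors obtained by aligning reads to GRCh38 with STAR and counting with RSEM on GENCODE v26, and 19.3% of them are not whole. The submitters' processing notes name FastQC 0.11.5 and STAR 2.6.1a, and the RSEM version and strand setting are not given in the sources used here.

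Genes were kept at a geometric mean (of count plus 1, minus 1) of at least 1, which removed 33936. Unrounded counts went into limma 3.58.1 (voom, R 4.3.3) with TMM factors from edgeR 4.0.16, a mean for each of 6 groups and Benjamini-Hochberg adjustment. Calls needed over 1.5-fold and an adjusted p under 0.05. edgeR and DESeq2 1.42.0, on rounded counts, and the other alternatives were tried beside it, and the code was tested on simulated data. Intervals and limits of 3 counts cover counting error or replicate spread only. Positions and exon lengths come from GENCODE v44, promoters from RefSeq.

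The members, lists and comparisons were chosen with earlier results of these data known. Named were the 9 members, 7 other family genes, up to 3 rises and 3 falls per pathway list, by largest mean change among genes called alike in all 4 SCFA groups at 1 CPM or more, list genes called in TN vs Ctrl, and the 3 genes most like EGFR, HBEGF, AREG and EREG. Replicate numbers gave correlations of −0.079 to 0.24 over 15 pairs of groups, 1 of them over 0.1, and were not used as pairs.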

Additional observations from a re-analysis of the deposited data

How the results depend on the processing

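The rises of AREG, ERBB3 and ERRFI1 and the fall of ERBB2 against TN kept their direction and call in all 4 SCFA groups under every alternative run (edgeR, DESeq2, other size factors, library size alone, other filters, only the groups compared, the replicate block, the adjusted p alone, each library left out, and, chosen after seeing the data, TNPR and TNBU by replicate 1 alone). EGFR did so except for PRTN with library size alone (−0.49). With the replicate block no member call changed in 14 comparisons, and AREG in PRTN vs TN stood at 3.96, but the numbers do not pair the samples. With the adjusted p alone 2 members (HBEGF and ERBB2) were called in TN vs Ctrl. Leaving out 1 library gave 0 to 1 members in TNBU vs BUTN. EREG in PRTN vs TN turned from −0.07 to 0.081 with library size alone. HBEGF in BUTN vs TN turned from 0.03 to −0.0053 with the default filter of edgeR, and ranged from −0.026 to 0.044 with 1 library left out, negative without TN replicate 1 or BUTN replicate 2. EREG was not called with library size alone (−0.55 in TNPR, −0.49 in TNBU), in TNBU with only the groups compared (−0.70), or by replicate 1 alone (−0.38 and −0.25). EGFR vs Ctrl was not called with library size alone in BUTN (−0.57) and TNPR (−0.55). The cause was not tested. Over all genes, library size alone changed the higher and lower calls of BUTN vs TN from 5620 and 3613 to 6579 and 2656, of TNPR vs TN from 6067 and 4117 to 7232 and 3132, of TNBU vs TN from 6094 and 4027 to 7329 and 2849, and of TN vs Ctrl from 186 and 130 to 144 and 181. TN vs Ctrl had 316 calls in all, 91 with only its groups in the fit, 854 with the adjusted p alone and 177 to 376 with 1 library left out. Low counts limit ERBB3 in TN, and ERBB4, NRG2, NRG3, NRG4, EPGN and BTC.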

Other observations

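The genes whose log2 CPM followed a member most closely over the 12 libraries, among 11759 genes, are given as a description, since the Ctrl and TN libraries and the SCFA libraries form separate sets. For AREG they were PDP1 (Pearson r 0.998), KITLG (0.998) and CORO1A (0.998). For EGFR they were CDK12 (0.992), ENTPD7 (0.990) and BDP1 (0.986). For HBEGF, which was higher in TN than in Ctrl though not called, they were JPH1 (0.970), CTNNAL1 (0.959) and LMCD1 (0.958). For EREG they were MCL1 (0.938), ZFP36L2 (0.935) and DCAF7 (0.934).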
